A study of Mus musculus with 60 samples.

Results

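The comparison described here sets triceps, a skeletal muscle of the forelimb, against visceral white adipose tissue (vWAT) in mice that had neither a high-fat diet nor a running wheel. Its members are the 5 triceps and the 5 vWAT libraries of the chow-fed sedentary mice, 10 of the 60 libraries of the series, and they were chosen by the mouse code and tissue in the column names. The mice were C57BL/6JN animals, 12 weeks old, and the series holds 3 tissues from 20 mice, 5 in each of 4 groups: HFD trained, HFD sedentary, chow trained and chow sedentary. The chow supplied 10% and the high-fat diet (HFD) 60% of energy from fat for 6 weeks, and trained mice ran voluntarily for the last 3 weeks. Tissues of all groups, the sedentary one included, were taken after a 6-hour fast and, for trained mice, 24 hours with locked wheels. The same 5 chow sedentary mice gave both tissues, so each difference was taken within a mouse.

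Skeletal muscle and white fat handle the same fuels for opposite ends. Muscle fibres break down glycogen, glucose and fatty acids to make ATP for contraction and store a quick reserve as creatine phosphate, whereas white adipocytes make and store triglyceride, release fatty acids on hormonal signals, and secrete adipokines such as leptin and adiponectin. Many enzymes exist as pairs of closely related proteins from separate genes, of which one is often a muscle form and the other is used elsewhere. Muscle identity is set by the MyoD family and MEF2 factors, and adipocyte identity by PPARγ (Pparg) and C/EBPα (Cebpa).

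Expression was read as 3′ digital gene expression, in which a fragment near the 3′ end of each polyadenylated RNA is sequenced and a count stands for a transcript end whatever the length of the gene. The libraries held 651030 to 728549 counts in triceps and 580173 to 684758 counts in vWAT. CPM are counts divided by the library total, times 1000000. A gene with no count in a library could have been present at up to 4.12 to 4.61 CPM in triceps and 4.38 to 5.17 CPM in vWAT, by counting error alone. Muscle-fibre markers took 13.1 ± 0.993% of counts in triceps and 0.0149 ± 0.00356% in vWAT, where Myh4, Myh1 and Actn3 were at 0 in all 5 libraries, and the 10 adipocyte markers took 0.502 ± 0.0525% of counts in triceps and 9.52 ± 0.697% in vWAT (SD, n = 5 each), so both tissues carried the markers of their labels. Most of the adipocyte sum in triceps was Car3, a carbonic anhydrase that muscle fibres also make (4377 ± 671 CPM in triceps and 44445 ± 3367 CPM in vWAT). In whole tissue, fewer cells of a type and less RNA per cell cannot be told apart.

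The libraries were not alike in composition. Transcripts of the mitochondrial genome took 27.2 to 31.2% of counts in triceps and 12.9 to 18.9% in vWAT, and the 20 most abundant genes took 46.8 to 50.4% in triceps and 30.1 to 35.4% in vWAT. The trimmed mean scaling (TMM) used for the fits moved the log2 fold changes up by a median of 0.97 relative to plain CPM, and by less for some genes near 0 in a tissue. A gene with a TMM log2 fold change between 0 and about 0.97 mostly has the lower CPM in triceps, so "higher on both scales" below means called higher on TMM and on total counts. In the running numbers of the column names each tissue has a range of its own, within which the groups of mice come round again. Replicates 1 to 3 of chow sedentary mice stand in the first round and replicates 4 and 5 in the second. No label says what the numbers mark. Transcripts of heart (6 markers) numbered 214 to 247 counts in vWAT replicates 1 to 3 and 6 to 9 in vWAT replicates 4 and 5, and intestinal transcripts 148 to 167 in triceps replicates 1 to 3 and 1 to 2 in triceps replicates 4 and 5. In vWAT the intestinal transcripts numbered 2 to 8 in replicates 1 to 3 and 45 to 78 in replicates 4 and 5. Values fitted on replicates 4 and 5 alone are therefore given for some genes shared with heart. Any effect of the number ranges and that of tissue cannot be told apart.

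Of 5218 genes with enough counts to test, 3656 (70.1%) differed between triceps and vWAT at an adjusted p below 0.05 by the edgeR quasi-likelihood test with the mouse as a block and Benjamini-Hochberg adjustment, which all adjusted p values below use. In triceps 1857 genes (35.6%) were higher and 1799 (34.5%) lower, and on total counts 815 were higher and 3305 lower. The 815 genes higher on both scales are 15.6% of those tested, and all 1799 lower genes were also lower on total counts. A change of at least 4-fold was called for 533 genes higher (10.2%) and 684 lower (13.1%). A gene present in a single tissue passed the filter on low counts through that tissue, so the counts over list members below describe the members and carry no test. They are to be read beside the shares of all genes tested given here.

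The genes with the lowest adjusted p among abundant genes higher in triceps were parts of the fast-twitch contractile machine. Mylpf, the regulatory light chain of fast fibres, had 23662, 22527, 20225, 25299.9 and 25169 CPM in triceps, against 0, 3.26, 4.38, 3.12 and 3.19 CPM in vWAT (log2 fold change 13.85, SE 0.28, adjusted p = 3.93e-20). Tnnc2, the calcium sensor of fast troponin, had 25414 ± 1392 CPM in triceps and 3.15 ± 2.52 CPM in vWAT (log2 fold change 13.83, SE 0.30, adjusted p = 1.4e-19). The others were the essential light chain Myl1, skeletal α-actin Acta1, the troponin subunits Tnni2 and Tnnt3, the calcium pump of the sarcoplasmic reticulum Atp2a1, the calcium buffer parvalbumin (Pvalb), myotilin (Myot) and fast myosin-binding protein C (Mybpc2). Tnni2, Tnnt3, Atp2a1, Pvalb, Myot and Mybpc2 had 1 to 3 counts in all 5 vWAT libraries together. Their ratios of summed CPM in triceps over vWAT, with 95% exact binomial intervals that cover counting error only, ran from 3560.3 (95% interval 639 to 140660.0) for Mybpc2 to 56784 (95% interval 10191 to 2242890.0) for Tnnt3.

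Among abundant genes lower in triceps, those with the lowest adjusted p were the iron carrier transferrin (Trf), the cytochrome P450 Cyp2e1, the retinol carrier Rbp4, apolipoprotein E (Apoe), the calcium-binding protein S100a11, Pck1, γ-synuclein (Sncg), fatty acid synthase (Fasn), transketolase (Tkt) and the tubulin Tuba1b. Rbp4 had 7.29, 11, 11.1, 7.68 and 0 CPM in triceps, against 1341, 1291, 1699.9, 1331 and 792 CPM in vWAT, a log2 fold change −6.47, SE 0.22, adjusted p = 3e-16. Pck1, which makes glycerol backbones for triglyceride in fat, had 5.83, 6.86, 11.1, 7.68 and 8.42 CPM in triceps, against 583, 1032, 416, 786 and 899 CPM in vWAT. In both genes the highest triceps library lay far below the lowest vWAT library.

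**Figure D1:**
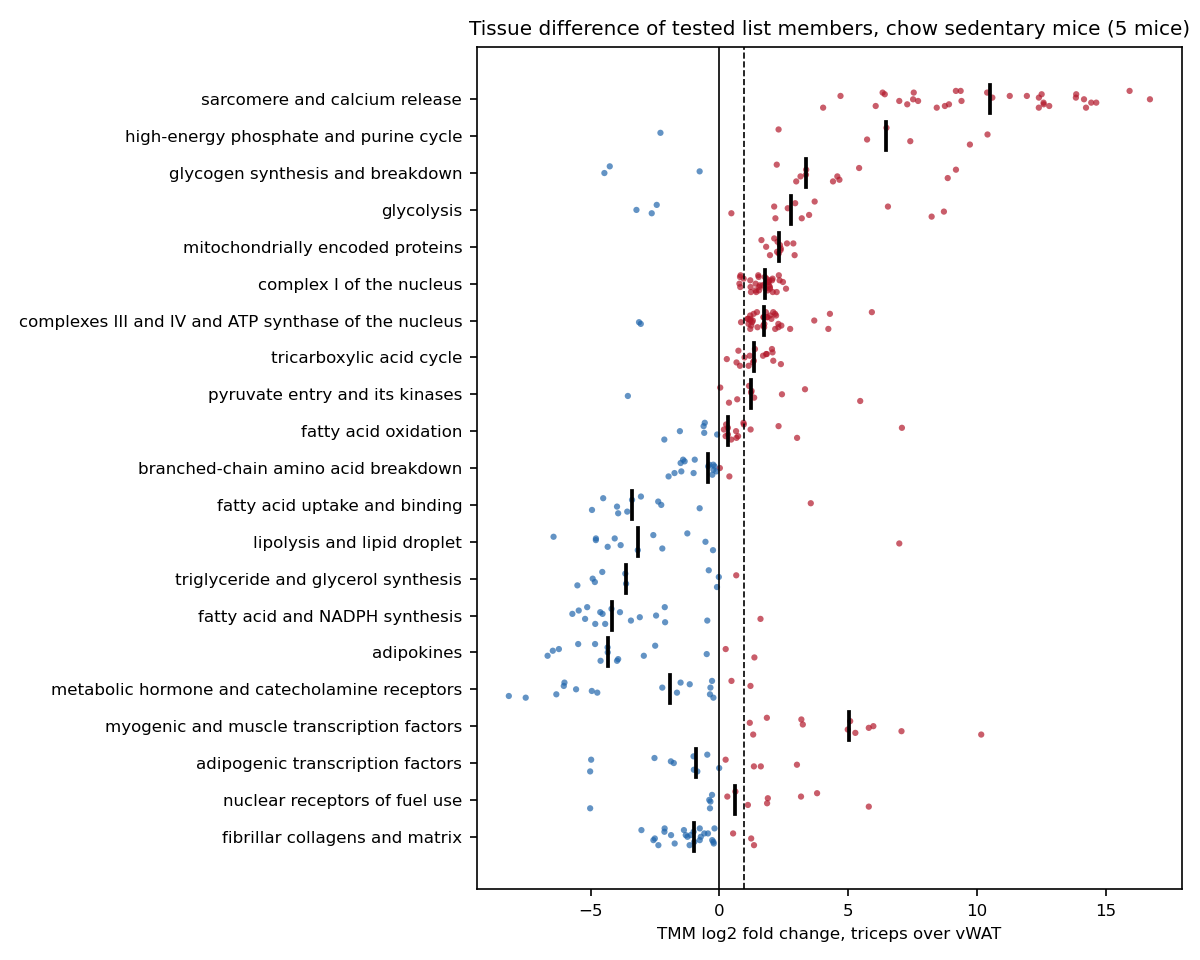
Tissue difference of the list members: each point is 1 tested gene, the x axis is the TMM log2 fold change of triceps over vWAT in chow sedentary mice, and each row is a list of members. The bar marks the median of the row, the solid line is 0 and the dashed line is 0.97, the median shift between TMM and total counts. Sarcomere genes lie farthest to the right with a median of 10.49, and fatty acid synthesis lies to the left with a median of −4.19.

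The contractile list showed how far apart the tissues stand. Of 35 genes of the sarcomere and of calcium release, 34 were tested and all 34 were higher in triceps on both scales. Their median log2 fold change was 10.49, or 9.36 with the 10 genes that had no vWAT count set to their lower bound, against 0.01 over all genes tested. Together they took 21.7 ± 1.59% of counts in triceps and 0.0945 ± 0.0543% in vWAT. Myh4, the fastest myosin heavy chain (IIb), summed to 48219 counts in triceps and 0 in vWAT, at least 14451-fold higher when the 0 is read as the floor of 3 counts over the 5 libraries. By the same floor the calcium store protein Casq1 was at least 2610.0-fold, myosin IIx (Myh1) at least 826-fold, the fast-fibre actinin Actn3 at least 819-fold and the ryanodine receptor Ryr1 at least 330.3-fold higher. Sarcolipin (Sln), a regulator of the calcium pump, was the 1 member too low to test, with 15 counts in triceps and 31 in vWAT.

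Members of this list that heart also makes were not silent in vWAT. Titin (Ttn, chr2:76703980-76982547 in GRCm38.p6), the molecular spring of the sarcomere, had 12544, 11276, 12201, 11956 and 13348 CPM in triceps, against 75.8, 101, 75.9, 0 and 0 CPM in vWAT. Its vWAT counts came almost wholly from replicates 1 to 3, where heart transcripts were found, and the log2 fold change was 8.10 in those replicates alone and 16.61 in replicates 4 and 5 alone. A value fitted against libraries at 0, as in replicates 4 and 5, depends on the prior count of the fit and bounds nothing. Myoglobin (Mb), which stores oxygen in red muscle and heart, gave 2.98 and 9.48 in the same way. Over the 5 mice both were higher on both scales (Ttn log2 9.18, adjusted p = 0.00195, Mb log2 4.02, adjusted p = 0.0216). What heart transcripts contribute to the vWAT level of these genes was not tested.

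In the fit over the 5 mice, slow-fibre genes were mostly not called. Of 10 members 6 were tested, with the sarcomere Z-disc protein Myoz2 higher on TMM alone (log2 2.49, adjusted p = 0.0221) and the slow and cardiac calcium pump Atp2a2 lower (log2 −1.15, adjusted p = 4.9e-05). The slow light chains Myl2 and Myl3, slow and cardiac troponin C (Tnnc1) and the slow tropomyosin Tpm3 were not called. Myl3 had 46.6, 126, 354, 61.4 and 9.83 CPM in triceps, against 333, 376, 333, 0 and 1.59 CPM in vWAT, and the ranges of the tissues overlapped. The vWAT counts of Myl2, Myl3, Tnnc1 and Myoz2 lay almost wholly in replicates 1 to 3, where heart transcripts were found, as in Myl2 with 21.9, 39.8, 83, 29.2 and 4.21 CPM in triceps, against 309, 299.5, 200.1, 0 and 0 CPM in vWAT. Atp2a2 had 23.3, 34.3, 70.6, 20.0 and 8.42 CPM in triceps, against 159, 217, 197, 59.3 and 43 CPM in vWAT, with a log2 fold change of −1.25 in replicates 1 to 3 alone and −0.86 in replicates 4 and 5 alone. The part of heart transcripts in these values was not tested. Slow troponin I (Tnni1), too low to test, summed to 98 counts in triceps and 1 in vWAT, a ratio of 88.1 (95% interval 15.4 to 3515). Myosin I (Myh7) summed to 36 counts in triceps and 9 in vWAT. Among the triceps libraries, replicate 3 had the highest and replicate 5 the lowest level of Myl2, Myl3, Tnni1, Tnnc1, Tpm3 and Myh7. Tnni1, for example, had 13.1, 20.6, 83, 18.4 and 2.81 CPM in triceps, against 1.72, 0, 0, 0 and 0 CPM in vWAT. Without replicate 2, and without replicate 3, neither Myoz2 nor myoglobin (Mb) was called.

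Glycolysis, which splits glucose to pyruvate, was higher in triceps at most of its steps. Of 17 enzyme genes 14 were tested, 10 were higher on both scales, 3 were lower and 1 was not called, with a median log2 fold change of 2.79, and the list took 3.65 ± 0.327% of counts in triceps and 0.687 ± 0.172% in vWAT. Aldolase A (Aldoa) had 10667 ± 1302 CPM in triceps and 1653 ± 423 CPM in vWAT (log2 fold change 3.69, SE 0.19, adjusted p = 7.59e-13), and glyceraldehyde-3-phosphate dehydrogenase (Gapdh), often used as a constant reference gene, had 9604 ± 814 CPM in triceps and 1729.7 ± 423 CPM in vWAT (log2 fold change 3.48, SE 0.17, adjusted p = 9.22e-14). Pyruvate kinase (Pkm) and lactate dehydrogenase A (Ldha) were also higher (log2 3.19 and log2 2.12). The 3 lower genes were Pfkp, the platelet form of phosphofructokinase, and Pgam1 and Eno1, the non-muscle partners in pairs of isoforms described below. Ldhb, the heart form of lactate dehydrogenase, was not called (log2 0.46, adjusted p = 0.0573). Of the genes for glucose entry, the insulin-regulated transporter Slc2a4 (GLUT4) had 67.1, 97.5, 115, 167 and 105 CPM in triceps, against 53.4, 45.6, 59.9, 49.9 and 51 CPM in vWAT (log2 2.02) and hexokinase 2 (Hk2), which traps glucose as its phosphate, had 115 ± 26.8 CPM in triceps and 53.2 ± 11.1 CPM in vWAT (log2 2.07), both higher on both scales. The transporter Slc2a3 was not called, and the ubiquitous transporter Slc2a1 and hexokinase Hk1 were too low to test.

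Glycogen metabolism went the same way. Of 15 genes 14 were tested, 11 were higher on both scales and 3 lower, with a median of 3.36. Muscle glycogen phosphorylase (Pygm), which cuts glucose units off glycogen, had 1628, 1627, 1350.3, 2281 and 1658 CPM in triceps, against 6.89, 21.2, 5.84, 0 and 1.59 CPM in vWAT, and its liver form Pygl had 2.92, 5.49, 6.92, 1.54 and 2.81 CPM in triceps, against 193, 145, 242, 214 and 102 CPM in vWAT. The brain form Pygb was also lower (log2 −4.26), as was the branching enzyme Gbe1 (log2 −0.77, adjusted p = 0.00343). The phosphorylase kinase subunits Phka1 (log2 5.42) and Phkg1 (log2 4.41) and glycogenin (Gyg, log2 3.15), which primes new glycogen, were higher. Ppp1r3a, which brings protein phosphatase 1 to glycogen in muscle, summed to 916 counts in triceps and 2 in vWAT, a ratio of 412 (95% interval 114 to 3405).

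Genes that buffer ATP had the highest median difference of the metabolic lists. Of 10 genes for creatine phosphate and the purine nucleotide cycle 7 were tested, 6 higher on both scales and 1 lower, with a median of 6.48. Muscle creatine kinase (Ckm) had 11058, 10260.1, 9023, 11325 and 11878 CPM in triceps, against 48.3, 50.5, 38, 0 and 0 CPM in vWAT. The vWAT libraries of replicates 4 and 5 were at 0, and the log2 fold change was 8.74 in replicates 1 to 3 alone and 16.49 in replicates 4 and 5 alone. Mitochondrial creatine kinase of muscle (Ckmt2) gave 4.78 and 13.27. AMP deaminase 1 (Ampd1), which removes AMP in working fibres and is not a heart marker used here, had no count in vWAT and was at least 183-fold higher. Adenylate kinase 1 (Ak1, log2 6.48), which makes ATP from a pair of ADP molecules, and the muscle adenylosuccinate synthase Adssl1 (log2 7.41) were higher, and brain-type creatine kinase (Ckb) was lower (log2 −2.29).

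**Figure D2:**
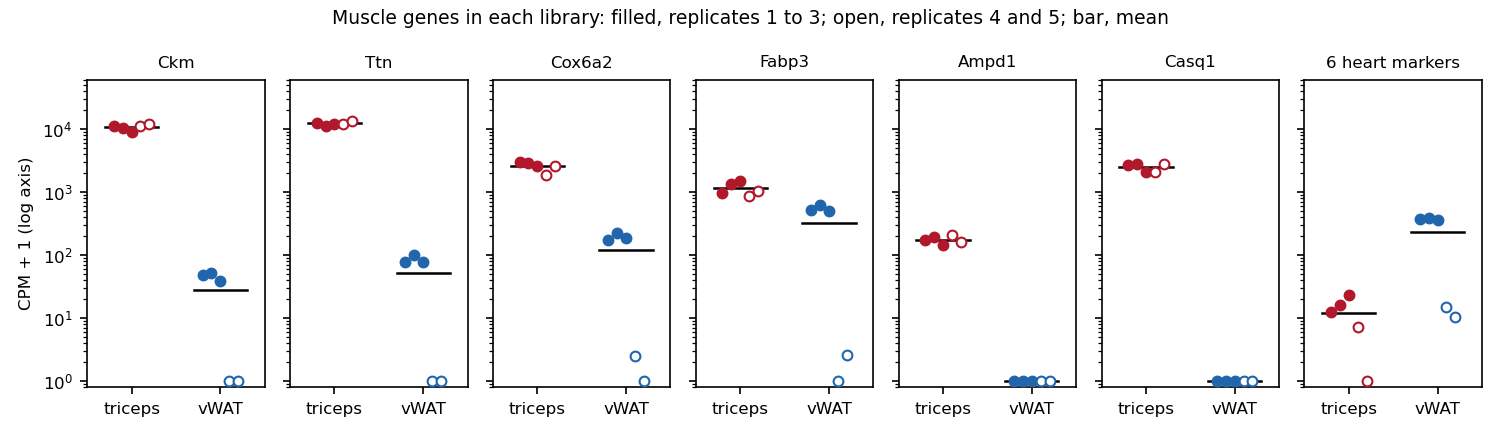
CPM in each library of genes of muscle that heart also makes (Ckm, Ttn, Cox6a2, Fabp3) and of genes of skeletal muscle alone (Ampd1, Casq1), plus the sum of 6 heart markers, on a log axis of CPM + 1. Triceps libraries are at the left and vWAT libraries at the right of each panel, filled points are replicates 1 to 3 and open points replicates 4 and 5. In vWAT the filled points lie above the open ones for the first group and the heart markers, and all 5 libraries are at 0 for Ampd1 and Casq1.

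Entry of pyruvate into the mitochondrion was mixed and depended on the scale. Of 12 genes 11 were tested, 9 were higher on TMM and 4 of these on both scales. The 4 were Pdha1 (log2 1.35), a catalytic subunit of pyruvate dehydrogenase, its kinases Pdk2 (log2 2.43) and Pdk4 (log2 5.46), and its phosphatase Pdp1 (log2 3.32). Pdk4, which shuts the dehydrogenase in fasting, had 717, 743, 931, 951 and 679.6 CPM in triceps, against 27.6, 44, 29.2, 23.4 and 54.2 CPM in vWAT. Pyruvate carboxylase (Pcx), which feeds citrate export and glycerol synthesis in fat, was the 1 lower member (11.8 ± 4.81 CPM in triceps and 271 ± 58.9 CPM in vWAT, log2 −3.56). The carrier subunit Mpc1 was higher on TMM (log2 0.37) and lower by total counts (−0.60).

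Genes of the respiratory chain were higher in triceps as a body, by less than the contractile genes. Of 36 nuclear genes of complex I all 36 were tested and higher, 29 of them on both scales, with a median of 1.77 on TMM and 0.80 on total counts. Ndufb5 (log2 2.58) and Ndufa5 (log2 2.46), accessory subunits, were among those with the lowest p, and Ndufa7, Ndufa10, Ndufb3, Ndufs5 and Ndufv3 had negative values on total counts. Of 38 nuclear genes of complexes III and IV and of ATP synthase 36 were higher, 27 on both scales. Atp5g1, which encodes the rotor ring of ATP synthase, had 1917 ± 186 CPM in triceps and 299.6 ± 73.9 CPM in vWAT (log2 fold change 3.68, SE 0.14, adjusted p = 9.81e-16). The 2 lower members were Cox6a1 and Cox8a, the forms of cytochrome oxidase subunits used outside muscle. In the tricarboxylic acid cycle 16 of 17 genes were higher, 10 on both scales, with a median of 1.33 on TMM and 0.36 on total counts. Succinate-CoA ligase subunit Sucla2 (log2 2.38) led that list, and Suclg2, its GTP-specific partner, was not called (log2 0.29, adjusted p = 0.28).

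The 13 proteins encoded by mitochondrial DNA were each higher in triceps on both scales, from log2 1.63 for mt-Nd6 to log2 2.92 for mt-Nd1, with a median of 2.30. Together they took 22.4 ± 1.25% of counts in triceps and 9.44 ± 0.859% in vWAT. The cytochrome oxidase subunit gene mt-Co3 had 49809.6, 43686, 49291, 46955 and 44008 CPM in triceps, against 17384, 14999, 18482, 18596 and 18910.0 CPM in vWAT. Without mitochondrial genes in the table, 3559 genes were called. The strand of mt-Nd6 is opposite to that of the other 12, and whether the counting used strand is not given in the sources used here.

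Genes of fatty acid oxidation did not move as a group. Of 23 genes 21 were tested, 10 were higher on TMM, 3 of them on both scales, 5 were lower and 6 were not called. Of all genes tested 35.6% were higher on TMM, 15.6% on both scales and 34.5% lower. The 3 were Cpt1b, the muscle gate for fatty acids into mitochondria (290 counts in triceps and 3 in vWAT, a ratio of 86.9 (95% interval 29.4 to 424)), the uncoupling protein Ucp3 (log2 3.01) and the thioesterase Acot13 (log2 2.29). Acsl1, which activates fatty acids (126 ± 18 CPM in triceps and 721 ± 136 CPM in vWAT, log2 −1.54), the liver-type gate Cpt1a (log2 −2.14), Hadh, Echs1 and Decr1 were lower. The medium-chain dehydrogenase Acadm was not called and had 342 ± 69.3 CPM in triceps and 556 ± 63.1 CPM in vWAT. For ketone body use, Oxct1 and Acat1 were higher on TMM (log2 0.60 and log2 0.28) and negative on total counts (−0.37 and −0.69). The call of Acat1 was lost without any 1 of the 5 mice and under DESeq2.

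Fat-making genes stood on the other side. Of 18 genes of fatty acid and NADPH synthesis 17 were tested, 15 were lower in triceps, 1 was higher and 1 not called, with a median of −4.19, and they took 0.0599 ± 0.0195% of counts in triceps and 3.05 ± 0.60% in vWAT. Fasn, which builds palmitate, had 11.7, 5.49, 23.5, 13.8 and 0 CPM in triceps, against 693, 576, 1124, 952 and 301 CPM in vWAT (log2 fold change −5.13, SE 0.22, adjusted p = 1.2e-14). Stearoyl-CoA desaturase 1 (Scd1), which adds the double bond of oleate and has close paralogs, had 241 ± 151 CPM in triceps and 22095 ± 4564 CPM in vWAT (log2 −5.71). The citrate carrier Slc25a1 (log2 −5.46), ATP citrate lyase (Acly, log2 −4.44) and the NADPH source G6pdx (log2 −4.82) were lower. The exception was Acacb, the acetyl-CoA carboxylase whose product restrains Cpt1b in muscle, at 27.9 ± 8.02 CPM in triceps and 17.7 ± 2.38 CPM in vWAT (log2 1.59, higher on both scales). The sterol and lipid regulator Srebf1 was not called (log2 −0.47, adjusted p = 0.487), with triceps replicate 4 at 36.9 CPM and the other triceps libraries at 1.4 to 8.75 CPM, and without replicate 4 it was lower (log2 −1.68). Mlxipl, the carbohydrate-responsive regulator, was too low to test (29 counts in triceps and 40 in vWAT).

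Storage, release and uptake of fat were lower in triceps too. In triglyceride synthesis 10 of 11 genes were tested and 6 were lower, among them Agpat2 (log2 −4.84), Dgat2 (log2 −4.55) and Mogat1 (log2 −4.92), while Gpd1, Lpin1 and Agpat3 were not called. Gpam, the first acyltransferase, was higher on TMM (log2 0.65) and negative on total counts (−0.32). In lipolysis and the lipid droplet 13 of 16 were tested and 10 were lower. The first lipase Pnpla2 had 34.3 ± 8.0 CPM in triceps and 607 ± 85.2 CPM in vWAT (log2 −3.17), hormone-sensitive lipase (Lipe) 1.97 ± 1.27 CPM in triceps and 116 ± 11.4 CPM in vWAT (log2 −4.80), and the droplet fusion protein Cidec 18.8 ± 14.9 CPM in triceps and 3075 ± 469.6 CPM in vWAT (log2 −6.44). Fitm1, a droplet-forming protein of muscle, was the 1 member higher on both scales (97.8 ± 18.1 CPM in triceps and 1.3 ± 1.42 CPM in vWAT, log2 6.98). In uptake and binding 9 of 11 tested genes were lower and took, with the rest of the list, 0.295 ± 0.0723% of counts in triceps and 5.55 ± 0.153% in vWAT. Fabp4, the fatty acid binding protein of adipocytes, had 499, 489, 607, 332 and 251 CPM in triceps, against 24503, 26121, 22795, 25806 and 27788 CPM in vWAT. Lipoprotein lipase (Lpl, log2 −3.93) and the fatty acid receptor Cd36 (log2 −3.05), both also made in muscle, were lower.

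Enzymes that break down branched-chain amino acids were lower or not called. All 17 genes were tested. In triceps 10 were lower, 0 higher and 7 not called, where 34.5% of all genes tested were lower. The log2 fold changes ran from −1.98 to 0.38 with a median of −0.44. In 15 of the 17 the CPM of triceps lay wholly below that of vWAT, as it did in 2732 of the 5218 genes tested. Mccc1, a methylcrotonyl-CoA carboxylase subunit, had 21.4 ± 6.32 CPM in triceps and 141 ± 24.7 CPM in vWAT (log2 −1.75), and the mitochondrial transaminase Bcat2, which starts the pathway and is known as abundant in muscle, had 6.83 ± 3.58 CPM in triceps and 53.2 ± 7.22 CPM in vWAT (log2 −1.98). In cholesterol synthesis 8 of 18 genes were tested and 6 were lower, led by Nsdhl (log2 −3.03), and 10 were too low to test.

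An isoform pair sets a form used in muscle beside a related form used in other tissues. Some partners are proteins of fat (Fabp4 and Plin1), and Gpd2 and Gpd1 are the mitochondrial and the cytosolic enzyme of 1 shuttle. In 41 pairs of a muscle form and its partner, the muscle member was higher in 38, 37 of them on both scales. It was too low to test in 2 (Plin5 and Esrrg) and not called in 1 (Fabp3). The partner was lower in 22 pairs, higher on TMM alone in 2 (Cox7a2 and Mef2a), not called in 5 and too low to test in 12. In 20 pairs the muscle member was higher and the partner lower, on both scales. Since the filter passes genes through the tissue where they are high, these counts describe the pairs and test nothing beyond the genes.

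The share of a pair's counts that fell on the muscle member is a measure within a library and does not depend on the scaling between tissues. It compares tissues and not the members, since a 3′ count can catch different genes with different success. In 36 pairs the shares of the 5 triceps libraries lay wholly above those of vWAT, and in 5 (aldolase, lactate dehydrogenase, fructose bisphosphatase, oestrogen-related receptor and a glycogen-targeting subunit) they overlapped. Of all 5218 genes tested, 666 had CPM wholly above and 2732 wholly below vWAT. Single-gene CPM depends on the scaling between tissues, so these numbers are no background for the shares. No background for the shares was computed. In glycogen phosphorylase the share of Pygm, set against Pygl, was 99.8, 99.7, 99.5, 99.9 and 99.8% in triceps and 3.45, 12.7, 2.35, 0 and 1.54% in vWAT. In phosphoglycerate mutase Pgam2 took 99.9, 99.9, 99.6, 99.7 and 100% in triceps and 24, 28.8, 21, 0 and 2.86% in vWAT. Enolase ran alike, with Eno3 at 99.8 to 100% in triceps and 0 to 40% in vWAT, but Eno1 has a near-identical copy, Eno1b, that can take part of its reads.

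**Figure D3:**
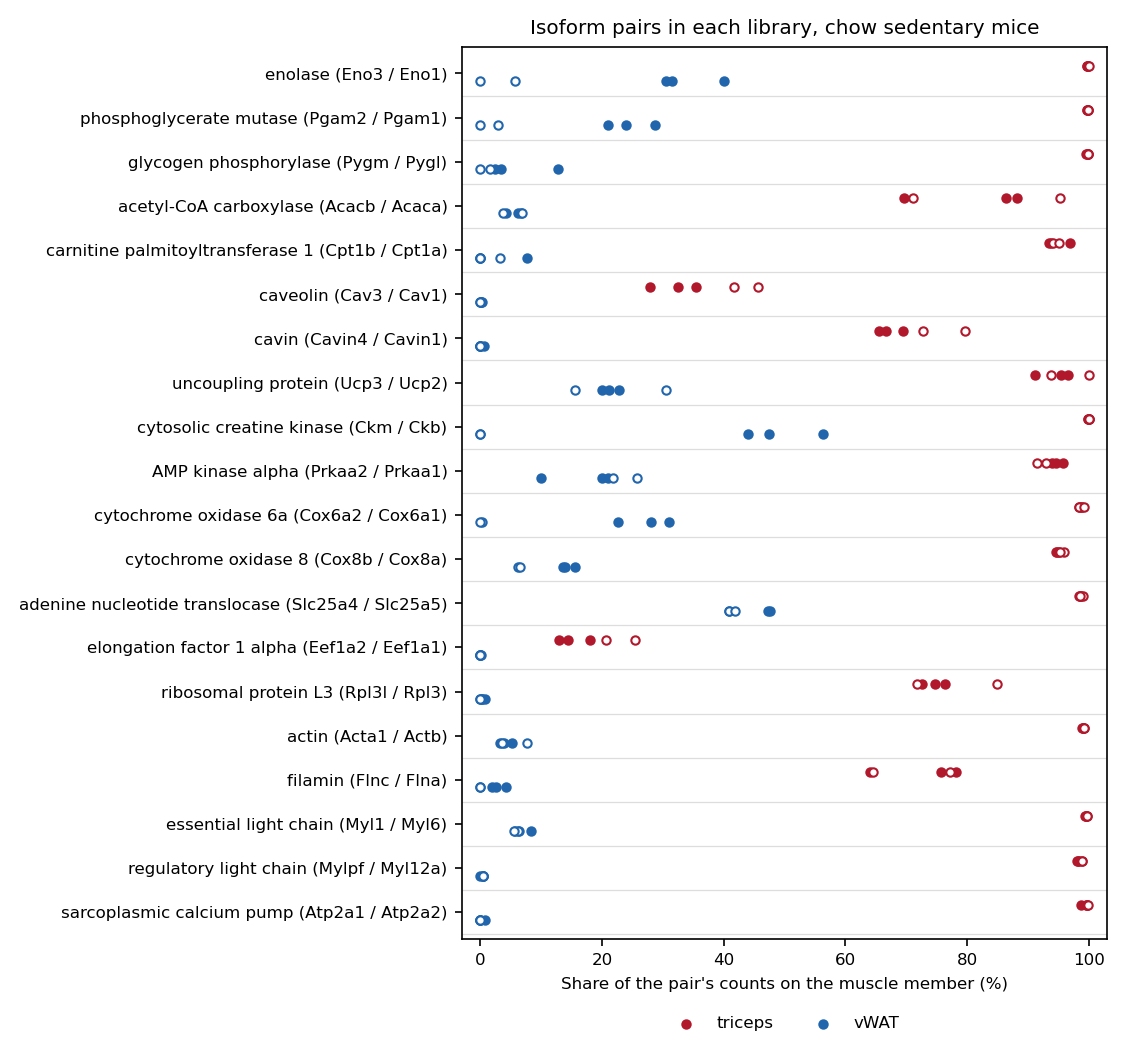
Share of a pair's counts on the muscle member, in percent on the x axis, in each library for the 20 pairs in which the muscle member was higher and the partner lower. In each row the triceps libraries are drawn above the vWAT libraries, filled points are replicates 1 to 3 and open points replicates 4 and 5. The rows of actin and of the regulatory light chain lie near 99% in triceps and below 8% in vWAT, and elongation factor 1 alpha has the smallest gap, at 12.9 to 25.4% in triceps and at most 0.108% in vWAT.

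Membrane and cytoskeletal pairs behaved in the same way. Skeletal α-actin against β-actin (Acta1 and Actb) stood at 99.1, 99.1, 98.8, 99.2 and 99.2% in triceps and 3.82, 3.16, 5.17, 3.6 and 7.63% in vWAT. In the essential light chain pair Myl1 took 99.4 to 99.7% in triceps and 5.54 to 8.3% in vWAT, and in the sarcoplasmic calcium pump pair Atp2a1, set against Atp2a2, took 98.8 to 99.9% in triceps and 0 to 0.746% in vWAT. Caveolin 3, the muscle form, took 27.9 to 45.6% in triceps and 0 to 0.232% in vWAT, and its partner Cav1 was lower in triceps (log2 −3.58) while staying the larger count there. In adenine nucleotide translocase, which swaps ATP for ADP across the inner mitochondrial membrane, Slc25a4 took 98.4 to 99% in triceps and 40.8 to 47.5% in vWAT.

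Pairs in fuel control divided too. Acacb took 88.2, 86.4, 69.6, 71.1 and 95.2% in triceps and 6.21, 6.59, 4.24, 3.64 and 6.82% in vWAT against Acaca, the carboxylase that makes substrate for fat synthesis. Cpt1b took 93.5 to 96.9% in triceps and 0 to 7.69% in vWAT against Cpt1a. Both catalytic subunits of AMP-activated kinase were counted in each tissue, with Prkaa2 at 91.6 to 95.8% in triceps and 10.0 to 25.8% in vWAT against Prkaa1. Even the protein-making machine had a pair: Rpl3l, the muscle form of ribosomal protein L3, took 72.6, 74.7, 76.4, 85 and 71.8% in triceps and 0.295, 0.293, 0.771, 0 and 0% in vWAT, while Rpl3 was lower in triceps (log2 −1.98, adjusted p = 3.57e-11). It was the 1 lower member among 52 tested cytosolic ribosomal protein genes, of which 45 were higher on TMM, 3 on both scales, with a median of 0.66 on TMM and −0.31 on total counts.

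The pairs shared with heart need the replicates beside them. Cox6a2 against Cox6a1 stood at 98.9, 98.8, 98.5, 98.4 and 99.2% in triceps and 28, 31, 22.6, 0.288 and 0% in vWAT, where the first 3 vWAT values are from the libraries with heart transcripts. Fabp3, a binding protein of muscle and heart, had 968, 1348, 1509, 862 and 1040.5 CPM in triceps, against 517, 614, 494, 0 and 1.59 CPM in vWAT, and with this spread it was not called (log2 fold change 3.54, SE 1.27, adjusted p = 0.0645), against a log2 of 2.17 in replicates 1 to 3 alone and 10.87 in replicates 4 and 5 alone. In vWAT 15 of the 39 tested muscle members (38.5%) had all of replicates 1 to 3 above both of replicates 4 and 5, against 11.7% of all genes tested. In triceps 14 of the 29 tested partner members (48.3%) were so ordered, against 10.5% of all genes, and 12 muscle members (30.8%, against 10.1%) had replicates 1 to 3 below both of replicates 4 and 5. In vWAT 6 partner members (20.7%, against 11.7%) had replicates 1 to 3 above and 1 (3.45%, against 12.6%) had them below. With replicates 1 to 3 alone 23 pairs had the muscle member higher and the partner lower, and with replicates 4 and 5 alone 18 did.

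Promoter sequences are shown for 3 pairs that switched and for skeletal α-actin, to set the muscle and the partner gene of 1 reaction side by side. They are RefSeq sequences of GRCm38.p6, 250 bases before to 50 bases after the transcript start, 5′ to 3′ on the strand of the gene. Capitals mark the E-box CAGCTG, the core that MyoD-family factors prefer, the SRF CArG box, bound by serum response factor, and the letters TATAAA of a TATA box, wherever they were found in these windows. The regions are Pygm chr19:6384158-6384457, plus strand, Pygl chr12:70227634-70227933, minus strand, Pgam2 chr11:5803747-5804046, minus strand, Pgam1 chr19:41911621-41911920, plus strand, Ckm chr7:19410844-19411143, plus strand, Ckb chr12:111672289-111672588, minus strand and Acta1 chr8:123894726-123895025, minus strand.
Pygm: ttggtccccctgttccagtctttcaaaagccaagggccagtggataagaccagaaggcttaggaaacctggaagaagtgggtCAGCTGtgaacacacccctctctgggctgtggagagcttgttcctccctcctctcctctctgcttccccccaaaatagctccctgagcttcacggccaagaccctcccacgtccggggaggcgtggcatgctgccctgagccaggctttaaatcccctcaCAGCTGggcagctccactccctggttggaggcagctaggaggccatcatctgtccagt
Pygl: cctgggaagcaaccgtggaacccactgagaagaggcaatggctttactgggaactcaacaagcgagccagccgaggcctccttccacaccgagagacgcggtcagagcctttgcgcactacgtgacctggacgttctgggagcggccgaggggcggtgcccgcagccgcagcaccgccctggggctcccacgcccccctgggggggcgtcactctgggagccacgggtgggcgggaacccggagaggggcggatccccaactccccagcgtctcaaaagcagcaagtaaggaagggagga
Pgam2: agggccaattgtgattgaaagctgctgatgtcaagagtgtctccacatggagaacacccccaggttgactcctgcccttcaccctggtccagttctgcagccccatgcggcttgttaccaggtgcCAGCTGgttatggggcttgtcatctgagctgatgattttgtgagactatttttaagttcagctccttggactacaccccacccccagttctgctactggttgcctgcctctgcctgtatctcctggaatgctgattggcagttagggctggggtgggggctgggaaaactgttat
Pgam1: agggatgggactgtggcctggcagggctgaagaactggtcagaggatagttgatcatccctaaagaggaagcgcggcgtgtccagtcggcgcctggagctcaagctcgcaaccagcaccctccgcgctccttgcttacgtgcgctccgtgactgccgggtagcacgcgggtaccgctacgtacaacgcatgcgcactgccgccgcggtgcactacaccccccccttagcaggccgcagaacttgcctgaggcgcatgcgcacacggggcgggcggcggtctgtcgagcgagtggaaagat
Ckm: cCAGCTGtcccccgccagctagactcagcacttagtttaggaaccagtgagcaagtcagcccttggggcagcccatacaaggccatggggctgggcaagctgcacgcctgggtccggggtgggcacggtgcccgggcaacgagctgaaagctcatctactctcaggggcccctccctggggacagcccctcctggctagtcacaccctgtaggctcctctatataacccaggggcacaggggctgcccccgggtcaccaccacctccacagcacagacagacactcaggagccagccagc
Ckb: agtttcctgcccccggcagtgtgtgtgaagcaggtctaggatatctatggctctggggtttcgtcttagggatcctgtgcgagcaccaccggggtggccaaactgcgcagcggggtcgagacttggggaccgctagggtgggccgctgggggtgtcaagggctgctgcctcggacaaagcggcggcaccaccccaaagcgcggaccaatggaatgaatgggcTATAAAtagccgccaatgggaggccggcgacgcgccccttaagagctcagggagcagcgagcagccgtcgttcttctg
Acta1: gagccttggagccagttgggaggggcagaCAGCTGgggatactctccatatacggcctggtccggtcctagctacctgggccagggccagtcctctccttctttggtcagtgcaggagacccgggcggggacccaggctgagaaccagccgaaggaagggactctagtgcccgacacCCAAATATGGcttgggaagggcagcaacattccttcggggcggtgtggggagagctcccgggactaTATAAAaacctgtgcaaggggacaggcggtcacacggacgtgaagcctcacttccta
In these windows the E-box began 168 and 8 bases before the start in Pygm, 125 before it in Pgam2, 249 before it in Ckm and 221 before it in Acta1, whose CArG box began 73 bases before the start. TATAAA began 28 bases before the start in Ckb and 7 bases before it in Acta1. No CAGCTG was found in the windows of Pygl, Pgam1 and Ckb. These letters are a description and not a site of binding. The genes shown are examples and do not stand for all pairs, for which the shares follow.

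Over all members the motif letters were counted on both strands, with no mismatch. CAGCTG was in 39.6% of 53 promoters of muscle members and 42.3% of 26 promoters of sarcomere genes, against 11.4% of 44 promoters of partner members, 14.8% of promoters of genes tested and 16.3% of all 32851 promoters. Of the genes at least 4-fold higher in triceps 22.1% held it, and of those at least 4-fold lower 18.4%. The MEF2 box (CTA and TAG around 4 bases of any kind) was in 9.43% of promoters of muscle members and 6.82% of those of partner members. It was in 3.25% of promoters of genes tested and 3.69% of all. The GC box GGGCGG, common in promoters of genes used by most cells, ran the other way. It was in 35.8% of promoters of muscle members, 68.2% of those of partner members, 62.0% of those of genes tested and 35.7% of all. The TATA box was in 17.0% of promoters of muscle members, 4.55% of those of partner members, 8.45% of those of genes tested and 13.6% of all. Promoters were matched for 37 of 41 muscle members, 35 of 41 partner members and 22 of 35 sarcomere genes, some with more than 1 start.

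Most of the tested hormones made by fat were lower in triceps. Of 26 adipokine genes 15 were tested, 12 were lower, 1 was higher on both scales and 2 were not called, with a median of −4.34, and the list took 0.0819 ± 0.0278% of counts in triceps and 3.66 ± 0.413% in vWAT. Leptin (Lep), the satiety hormone, had 17.5, 23.3, 18, 0 and 0 CPM in triceps, against 752, 405, 676, 595 and 438 CPM in vWAT (log2 fold change −4.61, SE 0.61, adjusted p = 0.00171). Its triceps counts came from replicates 1 to 3, and replicates 4 and 5 alone gave −10.96. Adiponectin (Adipoq) had 75.8, 49.4, 89.9, 23 and 25.3 CPM in triceps, against 7058, 8113, 7254, 6922 and 7341 CPM in vWAT (log2 fold change −6.23, SE 0.33, adjusted p = 1.41e-07). Resistin (Retn, log2 −6.67), adipsin (Cfd, log2 −5.48) and neuregulin 4 (Nrg4, log2 −4.34) were lower as well. Nampt, an enzyme of NAD synthesis that also circulates as visfatin, was the member higher on both scales, with ranges that overlapped (92.5 ± 16.1 CPM in triceps and 70.4 ± 7.7 CPM in vWAT, log2 1.36). Intelectin 1 (Itln1) had 28 counts in triceps and 0 in vWAT, in libraries that held intestinal transcripts.

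The promoter of Lep (chr6:29059971-29060270, plus strand) is shown because leptin is the adipokine whose C/EBP box close to the start is textbook. Capitals mark the letters TTGCNNAA searched for C/EBP and CAGCTG.
Lep: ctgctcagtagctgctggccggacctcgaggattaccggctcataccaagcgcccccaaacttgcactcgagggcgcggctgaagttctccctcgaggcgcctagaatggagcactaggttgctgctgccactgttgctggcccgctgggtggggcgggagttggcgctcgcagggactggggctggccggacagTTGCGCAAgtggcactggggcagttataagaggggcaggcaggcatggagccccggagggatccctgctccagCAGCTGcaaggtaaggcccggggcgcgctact
The C/EBP letters began 55 bases before the start and CAGCTG 18 bases after it. The C/EBP letters were in 13.5% of promoters of genes at least 4-fold lower in triceps, 8.72% of those at least 4-fold higher, 8.95% of those of genes tested and 10.8% of all.

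**Figure D4:**
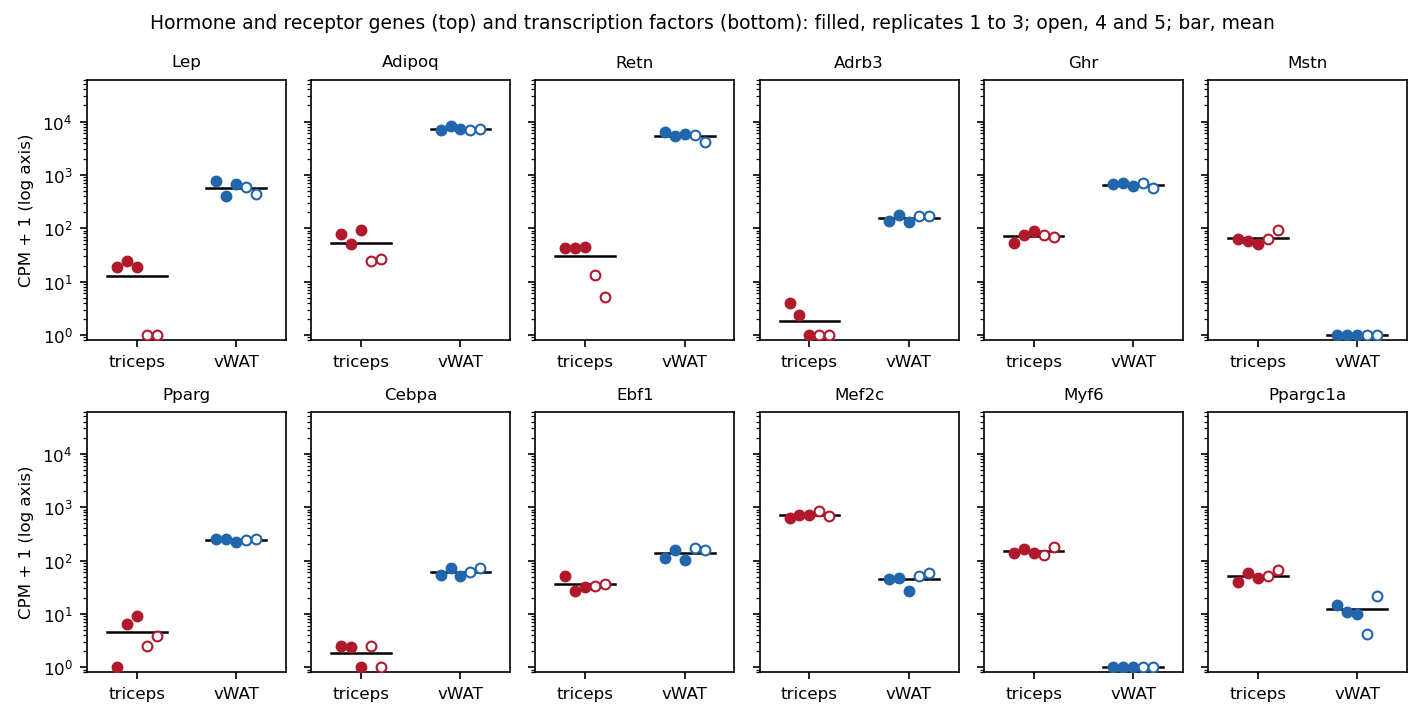
CPM in each library for 6 hormone and receptor genes and 6 transcription factor genes, on a log axis of CPM + 1, with triceps at the left and vWAT at the right of each panel. Filled points are replicates 1 to 3, open points replicates 4 and 5, and the bar is the mean of the 5 libraries. Leptin, adiponectin and the β3 receptor lie lower in triceps, and myostatin, Myf6 and Mef2c lie higher.

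Muscle hormones were few at this depth. Of 22 myokine genes 6 were tested and myostatin (Mstn), the brake on muscle growth, was the 1 higher on both scales, with 61.2, 56.3, 49.8, 61.4 and 89.9 CPM in triceps, against 0, 0, 0, 0 and 0 CPM in vWAT, at least 66.8-fold higher. Sparc (log2 −3.03) and Fstl1 (log2 −0.94), which fat also secretes, were lower. The irisin precursor Fndc5 (59 counts in triceps and 10 in vWAT), musclin (Ostn, 13 counts in triceps and 0 in vWAT) and Il15 (16 counts in triceps and 30 in vWAT) were too low to test, and Il6 and Gdf15 had no count in either tissue.

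Receptors for metabolic hormones were mostly lower in triceps, where 34.5% of all genes tested were lower. Of 39 genes 18 were tested, 12 were lower, 0 were higher on both scales, 2 were higher on TMM alone (Adipor1 and Cdh13) and 4 were not called. The β3-adrenergic receptor (Adrb3), through which catecholamines start lipolysis in mouse fat, had 2.92, 1.37, 0, 0 and 0 CPM in triceps, against 134, 173, 130.0, 172 and 171 CPM in vWAT, a ratio of 0.0055 (95% interval 0.00113 to 0.0162). The activin receptor Acvr1c summed to 1 count in triceps and 739 in vWAT, a ratio of 0.00122 (95% interval 3.08e-05 to 0.0068). The lactate receptor Hcar1 was at least 53.8-fold lower, with no count in triceps, and the thyrotropin receptor Tshr (log2 −5.57), the natriuretic peptide clearance receptor Npr3 (log2 −6.02) and the growth hormone receptor Ghr (log2 −2.22) were lower. The 2 adiponectin receptors differed: Adipor2 was lower (log2 −1.65), and Adipor1 had 73.4 ± 29.4 CPM in triceps and 61.4 ± 16.1 CPM in vWAT. The insulin receptor (Insr) and the glucocorticoid receptor (Nr3c1) were not called on TMM (log2 −0.24 and log2 −0.35).

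Insulin signalling was lower or not called. Among all genes tested 34.5% were lower. Of 14 genes 8 were tested and 5 were lower, among them Pde3b, the phosphodiesterase by which insulin stops lipolysis (3.1 ± 2.35 CPM in triceps and 159 ± 37.8 CPM in vWAT, log2 −4.62). The kinase Akt2, the docking protein Irs1 and Tbc1d4, a gate for GLUT4 vesicles, were not called (log2 0.03, log2 0.59 and log2 0.60). Tbc1d1, its muscle relative, summed to 69 counts in triceps and 17 in vWAT.

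Transcription factors of muscle were, where tested, higher in triceps. Of 31 genes 12 were tested and all 12 were higher, 10 on both scales, with a median of 5.03, and Mef2a and Maf were higher on TMM alone. Myf6 (MRF4), the MyoD-family member that stays on in mature fibres, had 136, 162, 136, 124 and 181 CPM in triceps, against 0, 0, 0, 0 and 0 CPM in vWAT, at least 156-fold higher. Mef2c had 636, 701, 706, 839 and 673 CPM in triceps, against 43.1, 45.6, 26.3, 49.9 and 57.4 CPM in vWAT (log2 fold change 4.98, SE 0.16, adjusted p = 7.67e-17). Tbx15, a T-box factor of fast fibres, summed to 284 counts in triceps and 3 in vWAT, a ratio of 85.1 (95% interval 28.8 to 415), and Sox6 (log2 3.18), a repressor of slow genes, was higher. Among factors too low to test, 7 had over 3 counts in triceps and 0 in vWAT, with Ankrd2 at 92 counts in triceps and 0 in vWAT, Eya1 at 42 counts in triceps and 0 in vWAT and Myod1 at 11 counts in triceps and 0 in vWAT. Myogenin (Myog), a factor of differentiating myoblasts, had 1 count.

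Transcription factors of fat were led by the pair that makes adipocytes. Of 28 genes 14 were tested, 8 were lower, 3 were higher on TMM, 1 of them on both scales, and 3 were not called. Pparg had 0, 5.49, 8.3, 1.54 and 2.81 CPM in triceps, against 248, 256, 219, 242 and 252 CPM in vWAT (log2 fold change −5.02, SE 0.30, adjusted p = 3.08e-12), and Cebpa summed to 3 counts in triceps and 191 in vWAT, a ratio of 0.0141 (95% interval 0.00289 to 0.0419). The liver X receptor Nr1h3 (log2 −1.89), Ebf1 (log2 −1.01) and Ebf2 (log2 −1.77) were lower. Stat5b, a transducer of growth hormone, went against the list and was higher on both scales (45.3 ± 10.2 CPM in triceps and 10.9 ± 5.05 CPM in vWAT, log2 3.01). Tcf21 and Wt1, markers of visceral fat progenitors and mesothelium, had 0 counts in triceps and 13 in vWAT and 0 counts in triceps and 12 in vWAT.

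Nuclear receptors and coactivators of fuel use gave 7 higher genes of 13 tested from 25, 5 of them on both scales, and 1 lower, Pparg. All genes tested gave 35.6% higher, 15.6% on both scales, and 34.5% lower. Among the 5 genes of this list higher on both scales were Nr4a1 (43.1 ± 9.45 CPM in triceps and 1.3 ± 0.73 CPM in vWAT, log2 5.80), a receptor induced by activity, the coactivator Ppargc1a (PGC-1α, 51.3 ± 9.7 CPM in triceps and 11.2 ± 6.53 CPM in vWAT, log2 3.16), which drives mitochondrial genes, the clock repressor Nr1d2 (log2 1.88) and the muscle retinoid receptor Rxrg (log2 1.85). Ppara and Ppard, the other receptors of fatty acids, were too low to test, with 9 counts in triceps and 8 in vWAT and 5 counts in triceps and 16 in vWAT.

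Position genes, which record where in the body a tissue arose, were mostly too low to test. Of 40 homeobox and T-box genes 5 were tested and 35 were too low. Hoxc8 summed to 1 count in triceps and 142 in vWAT, a ratio of 0.00633 (95% interval 0.000159 to 0.0358), and Hoxa7 was lower (log2 −1.13, adjusted p = 0.00338). Among those too low to test, Hoxa10 summed to 51 counts in triceps and 0 in vWAT and En1 to 22 counts in triceps and 0 in vWAT, while Hoxc4, Hoxc5 and Hoxc6 had 0 counts in triceps and 13 in vWAT, 0 counts in triceps and 18 in vWAT and 0 counts in triceps and 12 in vWAT. Tbx15 is listed here as well as under muscle.

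Markers of cells other than fibres and adipocytes differed between the samples too, where 34.5% of all genes tested were lower in triceps. Endothelial markers numbered 74 to 104 counts in triceps and 338 to 406 in vWAT, with 7 of 8 lower, macrophage markers 54 to 82 and 435 to 581, with 4 of 4 tested lower, and erythrocyte markers 865 to 1492 and 4632 to 11531. Mesothelial markers were at 0 to 4 counts in triceps and 2 to 62 in vWAT, and the 5 satellite cell markers at 5 to 20 counts in triceps and 0 in vWAT. Tendon markers, of which Fmod and Thbs4 passed the filter, were higher in triceps. Of 29 matrix genes 27 were tested, 19 were lower, 0 higher on both scales and 5 not called, with a median of −1.0. The basement membrane collagens Col4a1 (log2 −1.74) and Col4a2 (log2 −2.14) and the linker Nid1 (log2 −2.37) were lower, while fibrillar Col1a1 had 115 ± 96.9 CPM in triceps and 81.2 ± 34.7 CPM in vWAT (higher on TMM alone, log2 1.34). The part of these cells in the values of receptors, matrix and hormones was not tested.

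The tissue difference was set beside that of the other groups of mice. Called genes numbered 3772 of 5526 (68.3%; 31.7% higher, 36.6% lower) in HFD trained, 4167 of 5816 (71.6%; 34.0% higher, 37.7% lower) in HFD sedentary and 3580 of 5227 (68.5%; 31.9% higher, 36.5% lower) in chow trained mice. Of the genes called in chow sedentary mice, 3025 of the 3481 also tested were called in the same direction in HFD trained mice and 7 in the opposite one. In HFD sedentary mice 3201 of 3541 were called in the same direction and 5 in the opposite one, and in chow trained mice 2998 of 3400 and 0. Of 4640 genes tested in all 4 groups, 2595 (55.9%) were called in 1 direction throughout. The lists reached 36 of 36 for complex I, 33 of 33 for the sarcomere, 13 of 13 for mitochondrially encoded proteins, 13 of 15 for adipokines, 36 of 38 for muscle members of pairs and 21 of 29 for partner members. Fatty acid oxidation, with 12 of 21 (57.1%), and the nuclear receptors, with 6 of 11 (54.5%), were near the share of all genes. Lower shares were those of ribosomal proteins with 23 of 52 (44.2%), insulin signalling with 3 of 8 (37.5%) and branched-chain amino acid breakdown with 6 of 17 (35.3%). Small lists were below the share of all genes as well. They were mesenchymal progenitor markers (0 of 6), endothelial markers (3 of 6), smooth muscle and pericyte markers (2 of 4), ketone body use (1 of 3) and slow-fibre genes (0 of 2).

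Whether the tissue difference depended on diet or running was tested with tissue-by-group terms over the 40 triceps and vWAT libraries. Of 7783 genes 267 (3.43%) were called, against 122 without replicate 1 and 170 without replicate 3 of each group. Among list members the mitochondrially encoded proteins stood apart, with 12 of 13 called, 12 without replicate 1, 12 on total counts and 12 without the 3 HFD mice whose vWAT held muscle transcripts. For mt-Co1 the log2 fold change of triceps over vWAT was 3.58 in HFD trained, 3.51 in HFD sedentary, 2.30 in chow trained and 2.30 in chow sedentary mice (adjusted p = 1.81e-06). The difference was larger on the high-fat diet in both trained and sedentary mice. For mt-Co1, vWAT had 1393 ± 307 CPM in chow sedentary and 717 ± 126 CPM in HFD sedentary mice. Triceps had 3452 ± 446 and 3886 ± 635 CPM in the same groups. Among trained mice, vWAT had 1835 (chow) and 937 CPM (HFD), and triceps 4534 and 4890 CPM. The effect of diet within each tissue was not tested here. These genes share a genome, and whether their calls are independent was not tested. The 1 member not called was mt-Nd1. In vWAT, heart transcripts numbered 214 to 247 counts in replicates 1 to 3 of chow sedentary mice. They numbered 200 and 276 in replicates 1 and 2 of chow trained mice and 7 to 27 in HFD mice. Intestinal transcripts in triceps numbered 148 to 167 and 135 and 147 in the same chow mice and 0 to 3 in HFD mice. No setting left these chow mice out together, and what such transcripts contribute to the terms was not tested.

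**Figure D5:**
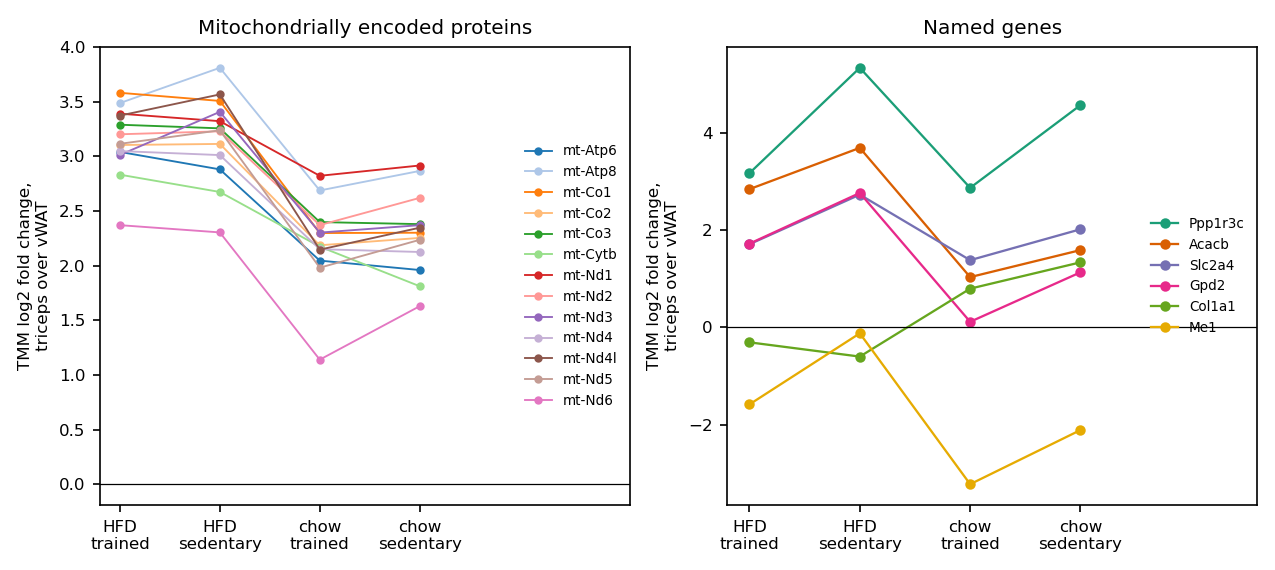
TMM log2 fold change of triceps over vWAT in each of the 4 groups of mice for the 13 mitochondrially encoded proteins and for 6 named genes. Groups run from HFD trained at the left to chow sedentary at the right, each point is the value fitted within its group, and lines join the points of a gene. The mitochondrial lines lie higher in both HFD groups, as does that of Acacb, and the values of Ppp1r3c are lower in both trained groups.

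Other lists had lower shares. Of 15 glycolysis genes, 35 sarcomere genes and 27 receptors 0 were called. Of 21 genes of fatty acid oxidation 8 were called, against 2 without replicate 1, and of 29 matrix genes 11 were, against 6 without replicate 1. Acacb stood at 2.85 in HFD trained, 3.70 in HFD sedentary, 1.04 in chow trained and 1.59 in chow sedentary mice (adjusted p = 7.23e-05). The NADPH source Me1 stood at −1.58 in HFD trained, −0.12 in HFD sedentary, −3.22 in chow trained and −2.11 in chow sedentary mice (adjusted p = 4.8e-06), and in HFD sedentary mice it had 78.3 ± 25.1 CPM in triceps and 176 ± 33.0 CPM in vWAT (SD, n = 5 each). Ppp1r3c, a subunit that brings phosphatase 1 to glycogen, stood at 3.18 in HFD trained, 5.34 in HFD sedentary, 2.87 in chow trained and 4.57 in chow sedentary mice (adjusted p = 9.73e-07), with the smaller values in trained mice on either diet. The mitochondrial glycerophosphate dehydrogenase Gpd2 stood at 1.72 in HFD trained, 2.77 in HFD sedentary, 0.12 in chow trained and 1.13 in chow sedentary mice (adjusted p = 2.56e-09). Lower adjusted p values were found for Defa24, Defa20 and Defa22, and the same value for Reg3b, defensin and antimicrobial genes of the intestine. Their counts lay in triceps libraries of chow-fed mice and in some, not all, of the vWAT libraries of HFD mice that held intestinal transcripts. Without the 3 HFD mice named above none of the 4 was called. With no replicate block none was called either, with adjusted p values of 0.146 to 0.174 by edgeR. Near-identical defensin copies can share reads.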

How the data were processed

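RNA was measured in triceps, vWAT and a subcutaneous depot (not used here) of 20 mice by 3′ digital gene expression, per the labels' protocols. Per the file headers, the authors deposited estimated counts per gene as whole numbers, not normalized, and beside them log2(CPM + 1) of the same libraries, used here only as a check. Salmon 0.14.2 and mm10 are named in the submitters' processing notes, and the handling of molecular identifiers and of strand is not given in the sources used here. In all, the table holds 54352 genes, of which 34062 had no count in the 10 libraries, 54179 IDs matched the annotation of GRCm38.p6 and 259 had no symbol.

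Counts were fitted with edgeR 4.0.16 in R 4.3.3 (TMM factors, filterByExpr by tissue, robust quasi-likelihood fit and F test, two-sided), with the mouse as a block and Benjamini-Hochberg adjustment over all genes tested. Genes below an adjusted p of 0.05 are called. The code was tested on simulated counts. The same mouse code stands on both libraries of an animal, which sets the pairing. The deviations of same-numbered libraries from their group means correlated at −0.04 to 0.05 over genes. Between libraries of different mice the range was −0.086 to 0.086, so the correlations by themselves do not show the pairing. DESeq2 1.42.0 and limma 3.58.1 voom, other scalings and filters, no block and leaving out each mouse were alternatives. Libraries of a group differed from each other by 2.77 to 8.49 in chi-square per degree of freedom, so none was a copy of another. The floor for a gene at 0 is 3 counts.

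Members and gene lists were chosen with earlier results of these data known. Named genes are, in each direction, the 10 called genes of lowest adjusted p whose log2 fold change is 4 or more in size and whose average log2 CPM is 8 or more, list members (by preference the 5 with the lowest adjusted p in each direction and those against the direction of their list), and the 5 lowest for the tissue-by-group terms. Some list members are not reported here. Promoters are from RefSeq for GRCm38.p6.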

Additional observations from a re-analysis of the deposited data

Results flagged for a closer look

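Among 373 sets of 5 libraries (a named gene in 1 tissue of chow sedentary mice), 26 (6.97%) held 1 library far from the other 4 by Dixon's criterion, which chance alone marks in about 1 of 20. Triceps replicate 4 was high for Actn3 (1493 CPM), Ryr1 (549.9 CPM), Prkaa2 (142.9 CPM), Adipor1 (124.4 CPM), Srebf1 (36.86 CPM) and Myod1 (9.216 CPM) and low for Rpl3 (50.69 CPM). Triceps replicate 3 was high for the slow-fibre genes Tnnc1 (148 CPM), Tnni1 (83.01 CPM) and Myh7 (33.2 CPM), and its highest values extended to the other slow-fibre genes given above. In the remaining triceps libraries Col1a1 was high in replicate 2 (285.5 CPM), Phkg1 (203.6 CPM) and Hoxa10 (19.66 CPM) were high in replicate 5, Eya1 was low in replicate 1 (8.746 CPM), and the globin Hbb-bs was high in replicate 3 (931.1 CPM). In vWAT replicate 5 the complex I genes Ndufv3 (551.7 CPM), Ndufb3 (369.9 CPM) and Ndufs5 (251.9 CPM) and the oxidase subunit Cox7a2 (711.1 CPM) were low, and mt-Nd6 (127.6 CPM) was high. In vWAT replicate 2 Acsl1 (953.9 CPM), Suclg2 (63.49 CPM), Srebf1 (40.7 CPM) and Wt1 (8.139 CPM) were high, S100a11 was high in vWAT replicate 1 (2103 CPM), and Cidea was low in vWAT replicate 5 (3.189 CPM).

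For 35 named genes the difference of triceps from vWAT varied among the 4 groups by the edgeR tissue-by-group test, the adjusted p values of which follow. The intestinal genes stood at 2.88e-15 for Defa24, 8.95e-13 for Defa20, 1.13e-10 for Defa22 and 2.56e-09 for Reg3b. Mitochondrial genes included mt-Co1 (1.81e-06), mt-Co3 (5.98e-05), mt-Nd6 (0.00067), the complex I gene Ndufa10 (0.00149) and the ATP synthase gene Atp5g1 (0.0413). In the use of glucose and glycogen they were Gpd2 (2.56e-09), Ppp1r3c (9.73e-07), Pdha1 (0.000143), Mpc1 (0.000162), Slc2a4 (0.00266), Gbe1 (0.00467) and Irs1 (0.0181). In fat synthesis and oxidation they were Me1 (4.8e-06), Acacb (7.23e-05), Oxct1 (0.000754), Gpam (0.00122), Lpin1 (0.00243), Ucp3 (0.00885), Decr1 (0.00901), Acaca (0.0218) and the droplet gene Cidea (0.0237). Matrix and membrane genes were Col1a1 (0.000133), S100a11 (0.00103), Sparc (0.00297), Car3 (0.00682, cytosolic), Fstl1 (0.0127, secreted) and Cav1 (0.0198). The pericyte gene Rgs5 stood at 0.00186. The factors were Rxrg (0.0268), Nr1d2 (0.0464) and Sox6 (0.0472). Of the 35, 15 were called without each mouse in turn, on total counts, with no replicate block and without the 3 HFD mice whose vWAT held muscle transcripts: Acacb, Col1a1, Gpam, Gpd2, Me1, Mpc1, Oxct1, Pdha1, Ppp1r3c, Rgs5, S100a11, Slc2a4, mt-Co1, mt-Co3 and mt-Nd6. Without some replicate 16 lost the call, and the 4 intestinal genes lost it with no replicate block and without the 3 HFD mice.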

How the results depend on the processing

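Depth limits the account to genes above a few CPM. The 2 tissues differ in composition, so calls of small differences depend on the scaling. On total counts 15 named genes that were called on at least 1 of the scales changed sign relative to TMM. Sign changes of genes called on neither scale are not counted. The 15 moved to −0.96 for Rgs5, −0.94 for Akt2, −0.71 for Acadm, −0.69 for Acat1, −0.68 for Suclg2, −0.60 for Mpc1, −0.51 for Ldhb, −0.50 for Cdh13, −0.37 for Oxct1, −0.32 for Gpam, −0.20 for Ndufs5, −0.18 for Ndufa7, −0.17 for Ndufv3, −0.15 for Ndufb3 and −0.033 for Ndufa10, against a median shift of 0.97 between the scales. In replicates 4 and 5 alone Apoa1 stood at −7.45, and the cause was not tested. Of 187 named genes with a value, 158 kept their call, and its direction where called, on total counts, and 171 of 184 did in replicates 4 and 5 alone. Under the other settings the share was lowest in replicates 1 to 3 alone (178 of 187) and highest with DESeq2 size factors (185 of 187). In 13 genes the call changed when 1 mouse was left out: Acat1, Agpat3, Cdh13, Irs1, Ldhb, Mb, Mpc1, Myh11, Myoz2, Nr3c1, Srebf1, Tbc1d4 and Tpm3.

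The count of 3656 called genes followed the filter, at 5541 with every gene counted at least once and 2319 with a mean of at least 20 counts per library, since more or fewer genes were tested. The stricter filter gave 2421 in HFD trained, 2667 in HFD sedentary and 2242 in chow trained mice. Likewise 1217 genes at least 4-fold different became 2526 and 810 under these filters, the 267 tissue-by-group genes became 424 under the looser one, and the 20 switched pairs became 13 under the stricter one. DESeq2 called 3167 genes and limma voom 3647, and for the tissue-by-group terms 201 and 288. Without 1 mouse at a time, called genes numbered 3492 to 3613, those at least 4-fold different 1223 to 1301, pairs 20 to 21 and tissue-by-group genes 122 to 288, the lowest without replicate 1 and 170 without replicate 3, and the cause was not tested. The other groups gave 3555 to 3659 in HFD trained, 3940 to 4171 in HFD sedentary and 3288 to 3620 in chow trained mice. The pairing comes from the mouse codes, and with no replicate block 3681 genes were called in chow sedentary mice, 3823 in HFD trained, 4244 in HFD sedentary and 3618 in chow trained mice, 212 for the tissue-by-group terms, and 20 pairs. Replicates 1 to 3 alone called 3533 genes and replicates 4 and 5 alone 3186, alternatives chosen after seeing the data.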

Other observations

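Of the genes of brown and beige fat, Ucp1, the uncoupling protein that defines brown adipocytes, had no count in either tissue, and Cidea, a droplet protein of brown and white adipocytes, summed to 1 count in triceps and 52 in vWAT. The 2 tested genes of that list were higher in triceps, Cox8b with 1697 ± 159 CPM in triceps and 193 ± 91.3 CPM in vWAT (SD, n = 5 each; log2 4.23, adjusted p = 5.65e-09, edgeR) and Ppargc1a, and skeletal muscle is known to make both.

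Most markers of vessel-wall cells were lower in triceps. Of 6 markers 5 were tested and 4 were lower, and the pericyte gene Rgs5 was not called. Smooth muscle actin (Acta2) had 24.8, 26.1, 22.1, 13.8 and 15.4 CPM in triceps, against 198, 166, 202, 154 and 314 CPM in vWAT (log2 −2.33, adjusted p = 1.81e-09, edgeR), and Tagln and Myh11, of the same cells, were lower (log2 −1.49 and log2 −1.03). Rgs5 stood at 220.2 ± 21.5 CPM in triceps and 433 ± 87.7 CPM in vWAT (log2 0.02 with an adjusted p of 0.912 on TMM, and −0.96 on total counts). Globin and other red cell transcripts were lower in all 5 genes tested, with Hbb-bs at 729.8 ± 116 CPM in triceps and 5062 ± 1943 CPM in vWAT (log2 −1.75, adjusted p = 6.9e-09), and the alpha and beta globin copies can share reads.

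Albumin (Alb), a liver secretory protein, was counted in vWAT and hardly in triceps, with 4.37, 2.75, 4.15, 0 and 0 CPM in triceps, against 215, 159.5, 112, 229 and 252 CPM in vWAT (log2 −5.33, adjusted p = 5.61e-11). Apolipoprotein A1 (Apoa1), made by liver and intestine, had 51, 53.5, 47, 0 and 0 CPM in triceps, against 0, 1.63, 1.46, 39 and 51 CPM in vWAT and was not called. Its log2 fold change was 6.21 in replicates 1 to 3 alone and −7.45 in replicates 4 and 5 alone, with the intestinal transcripts likewise high in triceps of replicates 1 to 3 and vWAT of replicates 4 and 5.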
